A study of Mus musculus with 7 samples.

Results

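The genes described here are the semaphorins, plexins, ephrins, Eph receptors, Slits, Robos, netrins and Unc5 receptors, families of cues and receptors that steer growing axons and vessels. They were taken by symbol from the authors' gene-level table, which held 62 of them among 23358 entries, 33 ligands and 29 receptors. Sema3g, Efnb2, Ephb4 and Unc5b, known as markers of arteries, veins or tip cells, were left out by the rule. The data come from RNA sequencing of cells sorted from the brain of C57Bl6 mouse embryos at stage E14.5 and labelled endothelial. The group labelled deficient in Tgfbr2, which encodes the ligand-binding type II receptor for TGF-β, had 4 libraries, and the control group had 3. Both groups were sorted on TdTomato, the red protein that the Ai14 reporter allele makes once Cre recombinase has acted, with 2000 to 5000 cells per library and single-end reads of 50 bases. Which Cre driver was used, in which cells it acts, which exons were deleted and what alleles the controls carry is not given in the sources used here. Since no label ties each library to its own embryo, q-values reflect the spread between the libraries at hand, and that spread may be technical.

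The table gave 1 FPKM value (fragments per kilobase of a transcript, corrected for library size) per gene and group, made by the authors from all libraries of the group. Values per library were not analysed here, so no spread could be drawn and the overlap of single libraries between the groups is unknown. The depth is unknown too. Tgfbr2 itself was at 65.4 FPKM in the Tgfbr2-deficient group and 91.1 FPKM in the control group, and did not pass in the authors' deposited table (log2 fold −0.48, q = 0.0953). A gene-level value can include reads from exons that recombination leaves in place. Kdr, the main VEGF receptor of endothelium, was at 43.0 FPKM in the Tgfbr2-deficient group and 1.94 FPKM in the control group. Csf1r, the receptor that macrophages depend on, was at 494 and 1247 FPKM in the same order. The 20 pan-endothelial markers summed to 547 FPKM in the Tgfbr2-deficient group and 153 FPKM in the control group. Most of this control sum came from Fli1 and Egfl7. Fli1 was at 39.1 FPKM in the Tgfbr2-deficient group and 58.3 FPKM in the control group, and Egfl7 at 64.7 and 47.7 FPKM in the same order. Of the 20 markers, 18 were higher in the Tgfbr2-deficient group at a deposited q-value under 0.05. The 22 microglia and macrophage markers summed to 7154 and 15093 FPKM, with 0 markers of either list at 0. By summed FPKM, the label endothelial therefore did not name the most abundant marker set in either group. In such bulk samples, fewer cells of a type and less RNA per cell cannot be told apart.

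As background, semaphorins signal through plexins, class 3 semaphorins with neuropilins as co-receptors, and the plexins act on small GTPases to collapse or turn a growth cone or to repel an endothelial sprout. Ephrins are bound to the membrane of 1 cell and Ephs to that of its neighbour, and both sides can signal: ephrin-A proteins hang on a lipid anchor and ephrin-B proteins cross the membrane. Slits repel cells that carry Robo receptors, and netrins attract through Dcc or repel through Unc5 receptors. In the developing brain these families are known both from axon tracts and from vessel patterning.

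Most guidance genes stood at low levels in the control group and were higher in the Tgfbr2-deficient one, while 4 genes of the semaphorin and plexin families were lower. Of the 62 genes, 55 had a test by the authors and reached 1 FPKM in at least 1 group. Of these 55, 43 rose (78.2%), 4 fell (7.27%) and 8 did not pass at a deposited q-value under 0.05, against 23.9% higher and 14.7% lower over all 13356 genes tested, or 38.6% called either way. Each of the 15 genes that reached 1 FPKM in the Tgfbr2-deficient group alone rose, as such a filter favours. In the control group alone, 0 reached it. The 15 were Sema3a, Sema3b, Sema3c, Sema3d, Sema4f, Sema4g, Sema5a, Sema7a, Epha2, Epha8, Slit2, Slit3, Robo4, Ntn3 and Ntn4. Of the 40 at 1 FPKM or more in both groups, 28 rose and 4 fell, and the shares over all genes under that filter were not computed. The median log2 fold of FPKM + 1 was 1.34 over the 55 genes and −0.08 over all genes tested. The 7 genes that did not enter the count were Sema3e, Epha6, Epha10 and Ntn5, which the authors did not test, and Epha1, Unc5c and Unc5d, which stayed under 1 FPKM.

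Calls followed level in the whole table, so the members were also set beside genes of their own level. Under a mean of 5 FPKM over both groups, 30 of 32 guidance genes rose and 0 fell. Among all tested genes of that level, 44.8% were higher, 2.93% lower and 47.8% called either way. The 32 include the 15 that reached 1 FPKM in the Tgfbr2-deficient group alone, where the filter favours a rise. The mean also includes that group, so the level classes are not independent of the change. Between 5 and 20 FPKM, 13 of 19 rose and 1 fell, against 19.5% higher, 9.68% lower and 29.2% either way. At 20 FPKM or more, 0 of 4 rose and 3 fell, against 6.99% higher, 32.5% lower and 39.5% either way, so the falls among abundant guidance genes lie in a class where falls were common. The median level over all 62 genes was 5.91 FPKM in the Tgfbr2-deficient group and 1.56 FPKM in the control group. A level of 5 FPKM was reached by 36 of them in the Tgfbr2-deficient group and by 14 in the control group.

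**Figure D1:**
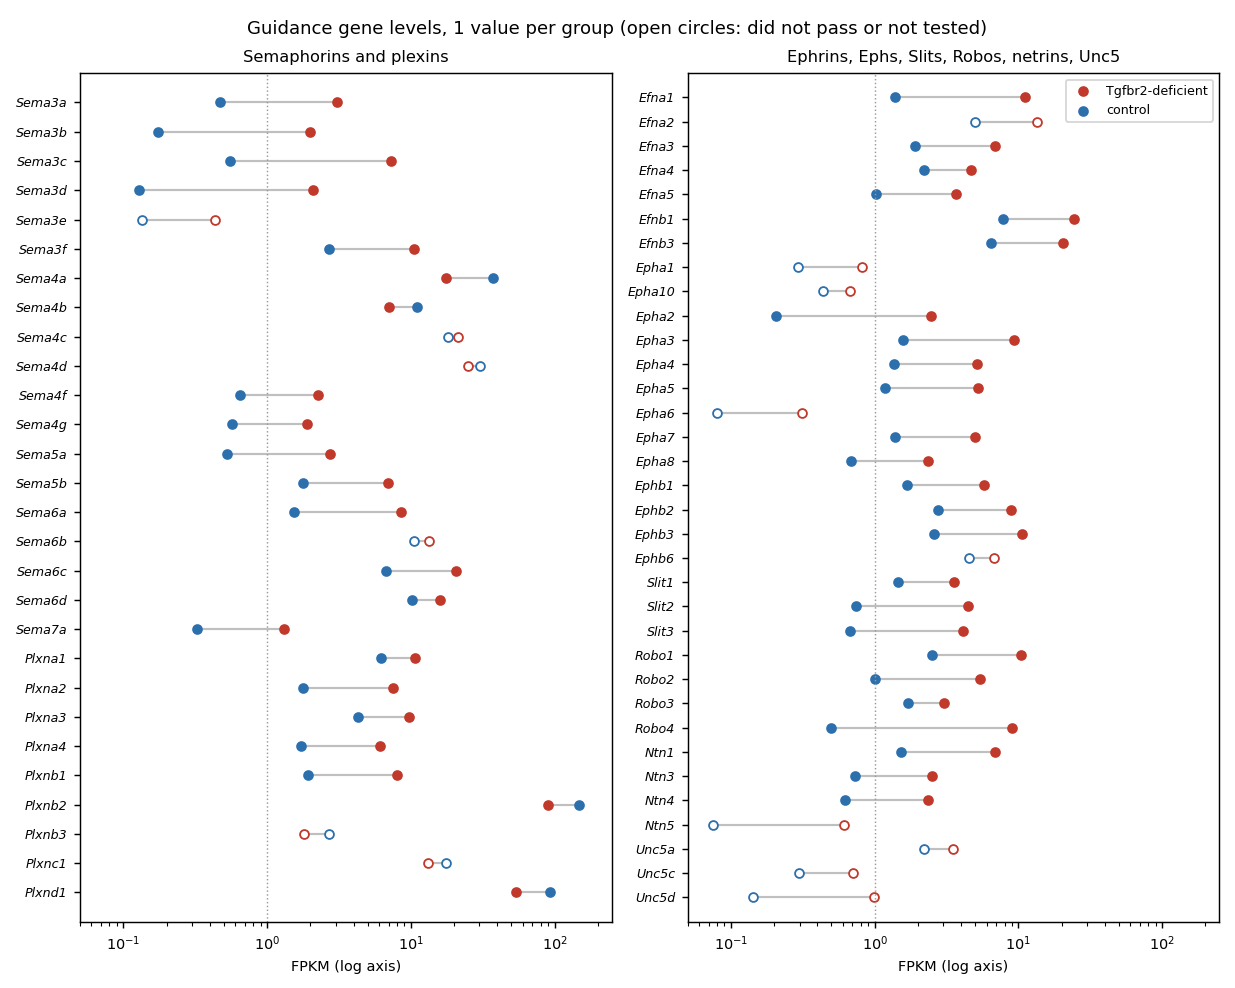
FPKM of each of the 62 guidance genes in the Tgfbr2-deficient group (red) and the control group (blue), 1 value per group on a log axis, with the dotted line at 1 FPKM. Filled circles mark genes that passed; red lies to the right of blue in 55 of 62 genes, and Sema4a, Sema4b, Plxnb2 and Plxnd1 are the filled pairs in which it lies to the left.

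The 4 genes that fell were 2 receptors, Plxnb2 and Plxnd1, and 2 membrane-bound class 4 semaphorins, Sema4a and Sema4b. Plxnb2 encodes plexin-B2, a receptor for class 4 semaphorins, and was the most abundant guidance gene in both groups, at 90.0 FPKM in the Tgfbr2-deficient group and 148 FPKM in the control group. Plxnd1 encodes plexin-D1, the receptor of Sema3e on endothelium that is also made by other cells, and came next in both groups, at 54.0 FPKM in the Tgfbr2-deficient group and 92.8 FPKM in the control group. Sema4a, a ligand known from immune cells that can bind plexin-D1, was at 17.5 FPKM in the Tgfbr2-deficient group and 37.0 FPKM in the control group. Sema4b, a related ligand, was at 7.10 FPKM in the Tgfbr2-deficient group and 11.1 FPKM in the control group. Sema4a thus stood at less than 1/2 of its control level, and the other 3 at a smaller loss. The authors' deposited table gave Sema4a a log2 fold of −1.08 (q = 0.00029), Plxnd1 of −0.78 (q = 0.00829), Plxnb2 of −0.72 (q = 0.0223) and Sema4b of −0.64 (q = 0.0209). Folds of FPKM + 1 were also centred on ribosomal protein genes, which adds 0.54 to each. Of the tested genes of that set, 53.2% were themselves lower. Sema4a then stayed at −0.50, Plxnd1 at −0.23 and Plxnb2 at −0.17, while Sema4b came to −0.03.

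In the mm10 build, Plxnb2 lies at chr15:89155549-89180788 and Plxnd1 at chr6:115954811-115995005, both on the minus strand. Sema4a lies at chr3:88435962-88461182 on the minus strand and Sema4b at chr7:80186841-80226524 on the plus strand. GENCODE M21 annotates all 4 as protein-coding genes. Together these genes held 29.3% of the summed FPKM of the 62 genes in the Tgfbr2-deficient group and 61.6% in the control group, where the other 58 genes summed to 407 and 180 FPKM. Beside these falls, the microglia and macrophage list had 20 of its 22 genes lower and 0 higher, with a median deposited log2 fold of −1.10. The part of these markers in the falls was not tested.

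**Figure D2:**
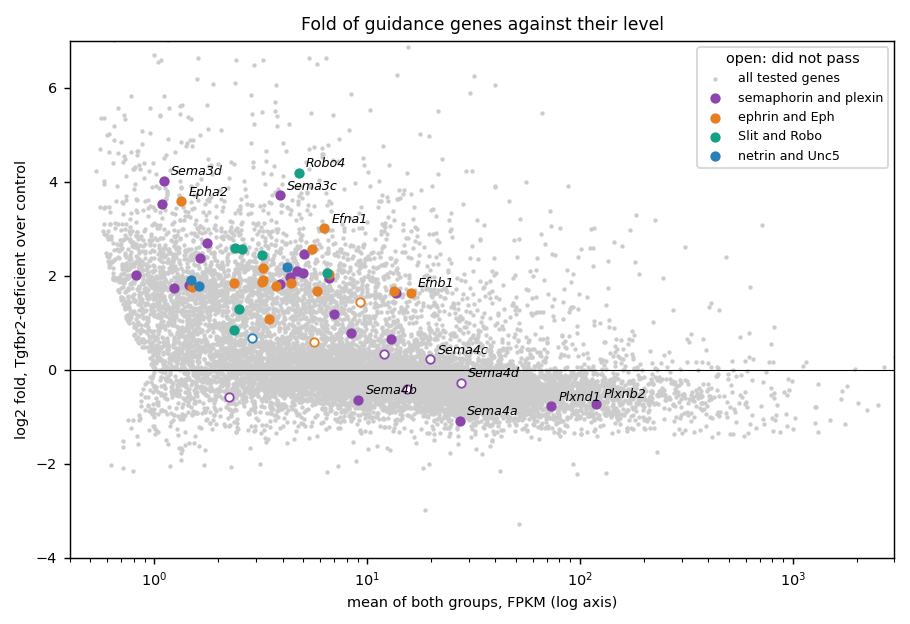
Deposited log2 fold of the Tgfbr2-deficient over the control group against the mean FPKM of both groups on a log axis, for the 55 tested guidance genes (coloured, open where they did not pass) and 13317 tested genes above 0 in both groups (grey), of which 15 lie beyond the axes. Plxnb2, Plxnd1, Sema4a and Sema4b sit below 0 among many grey points, at means from 9.10 FPKM (Sema4b) to 119 FPKM (Plxnb2). Above 3.5 lie 5 guidance genes, Robo4, Sema3d, Sema3c, Epha2 and the unlabelled Sema3b.

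The promoter sequences of the 4 genes that fell are shown beside those of the 2 genes with the largest folds, Robo4 and Sema3d, so that the start regions of genes that moved in opposite directions can be compared. Each is the stretch of 250 bases before the annotated start nearest to the edge of the deposited locus, from RefSeq on GRCm38.p6, which is mm10, printed 5′ to 3′ on the strand of the gene. Capitals mark matches, on either strand, to the PU-box core GAGGAA, an ETS core CCGGAA, the SMAD box CAGACA, the GC box GGGCGG or the TATA box TATAAA. The windows are chr15:89180789-89181038 and chr6:115995006-115995255 on the minus strand, chr3:88461183-88461432 on the minus strand, chr7:80186620-80186869 on the plus strand, chr9:37401722-37401971 on the plus strand and chr5:12382916-12383165 on the plus strand.
Plxnb2: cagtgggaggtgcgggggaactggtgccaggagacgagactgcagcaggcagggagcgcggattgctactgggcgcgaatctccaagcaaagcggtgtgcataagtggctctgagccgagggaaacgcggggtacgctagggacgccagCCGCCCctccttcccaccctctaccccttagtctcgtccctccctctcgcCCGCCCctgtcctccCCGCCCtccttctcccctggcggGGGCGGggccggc
Plxnd1: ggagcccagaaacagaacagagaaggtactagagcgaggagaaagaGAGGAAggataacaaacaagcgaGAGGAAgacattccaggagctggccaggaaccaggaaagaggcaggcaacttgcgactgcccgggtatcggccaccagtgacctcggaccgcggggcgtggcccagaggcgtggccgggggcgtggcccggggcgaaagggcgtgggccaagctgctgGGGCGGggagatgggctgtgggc
Sema4a: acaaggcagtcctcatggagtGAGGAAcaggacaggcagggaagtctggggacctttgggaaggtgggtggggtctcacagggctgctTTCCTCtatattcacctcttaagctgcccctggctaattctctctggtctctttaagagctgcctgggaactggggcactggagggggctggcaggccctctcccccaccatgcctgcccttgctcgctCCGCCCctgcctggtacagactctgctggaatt
Sema4b: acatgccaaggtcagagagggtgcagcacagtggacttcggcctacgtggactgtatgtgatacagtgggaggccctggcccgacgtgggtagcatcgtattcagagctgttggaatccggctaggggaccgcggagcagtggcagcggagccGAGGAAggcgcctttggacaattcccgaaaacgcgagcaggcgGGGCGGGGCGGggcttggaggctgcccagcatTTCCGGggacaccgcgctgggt
Robo4: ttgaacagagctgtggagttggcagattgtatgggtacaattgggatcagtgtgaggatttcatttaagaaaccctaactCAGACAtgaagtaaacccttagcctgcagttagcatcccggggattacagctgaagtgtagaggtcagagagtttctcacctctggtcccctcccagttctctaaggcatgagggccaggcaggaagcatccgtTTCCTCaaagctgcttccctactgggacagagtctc
Sema3d: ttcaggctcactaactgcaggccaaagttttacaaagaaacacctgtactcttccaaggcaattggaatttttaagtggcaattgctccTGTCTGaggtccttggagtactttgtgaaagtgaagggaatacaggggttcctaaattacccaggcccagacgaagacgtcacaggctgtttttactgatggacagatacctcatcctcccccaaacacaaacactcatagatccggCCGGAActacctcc

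GAGGAA was in 3 of the 4 windows of genes that fell and in 8 of 35 windows of genes that rose, against 23.3% of all 32817 windows of this length. CAGACA was in 0 of 4 and 10 of 35, against 17.1% of all windows. GGGCGG was in 4 of 4 and 22 of 35, against 32.7%, and CCGGAA in 1 of 4 and 3 of 35, against 12%. TATAAA was in 0 of 4 and 1 of 35, against 12.4%. The median share of G and C was 64.6% in the windows of genes that fell and 65.6% in those that rose, against 52.4% over all windows. The motif counts over so few genes are a description, and a match is not a bound site. Of the 62 genes, 53 matched an entry of the promoter table. Some windows lie far from the edge of the deposited locus. The distance was 43285 bases for Sema6d, which rose and holds CAGACA, 36961 bases for Sema4d and 482177 bases for Efna2.

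Of the 6 secreted class 3 semaphorins, 5 rose, and Sema3d, Sema3c and Sema3b had the largest deposited log2 folds among the ligands. Sema3c, which acts through neuropilins and plexins in heart and vessel development, was at 7.23 FPKM in the Tgfbr2-deficient group and 0.554 FPKM in the control group, a ratio of 13.1. Sema3d was at 2.08 FPKM in the Tgfbr2-deficient group and 0.128 FPKM in the control group, and Sema3b at 2.0 and 0.174 FPKM in the same order. Sema3a, the classical growth cone repellent, was at 3.07 FPKM in the Tgfbr2-deficient group and 0.473 FPKM in the control group. The deposited log2 folds were 3.71 for Sema3c, 4.02 for Sema3d, 3.52 for Sema3b and 2.70 for Sema3a, each with q = 0.00029, the smallest in the table. These 4 control levels lie below 1 FPKM, so the size of the folds rests on low values of unknown depth. Sema3f, which signals mainly through neuropilin-2, had the highest level of the class in both groups, at 10.5 FPKM in the Tgfbr2-deficient group and 2.71 FPKM in the control group (deposited log2 fold 1.96, q = 0.00029). Sema3e, the ligand of plexin-D1, stayed low at 0.434 and 0.135 FPKM and was not tested, so in both groups the receptor Plxnd1 stood far above this ligand in FPKM. In mm10, Sema3d, Sema3a, Sema3e and Sema3c all lie on chromosome 5, and the 3 of them that were tested all rose.

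The transmembrane class 4 semaphorins split. Beside the falls of Sema4a and Sema4b, Sema4f was at 2.26 FPKM in the Tgfbr2-deficient group and 0.649 FPKM in the control group, and Sema4g at 1.89 and 0.567 FPKM in the same order. The authors' deposited table called both higher, with log2 folds of 1.80 and 1.74 (q = 0.00029 each). Sema4d, the ligand of plexin-B1 known from immune cells, was at 25.0 FPKM in the Tgfbr2-deficient group and 30.3 FPKM in the control group and did not pass (deposited q = 0.302). Sema4c, a ligand of plexin-B2, was at 21.4 FPKM in the Tgfbr2-deficient group and 18.3 FPKM in the control group and did not pass either (deposited q = 0.423). The 4 abundant members thus fell or did not pass, and the 2 scarce ones rose. Sema4f and Sema4g reached 1 FPKM in the Tgfbr2-deficient group alone, where the filter favours a rise. At a minimum of 5 FPKM, 0 of 4 class 4 genes were higher and 2 were lower. The class summed to 75.1 FPKM in the Tgfbr2-deficient group and 97.9 FPKM in the control group.

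Class 5, 6 and 7 semaphorins were higher or did not pass. Among class 6, transmembrane ligands of A-type plexins, Sema6c was the most abundant in the Tgfbr2-deficient group, at 20.7 FPKM against 6.70 FPKM in the control group (deposited log2 fold 1.62, q = 0.00029). Sema6a was at 8.51 FPKM in the Tgfbr2-deficient group and 1.54 FPKM in the control group (deposited log2 fold 2.47, q = 0.00029). Sema6d was at 15.8 FPKM in the Tgfbr2-deficient group and 10.2 FPKM in the control group, a smaller rise (deposited log2 fold 0.64, q = 0.0143), and Sema6b, at 13.4 and 10.5 FPKM in the same order, did not pass (deposited q = 0.232). Sema5a and Sema5b, which carry thrombospondin repeats, were at 2.74 and 6.90 FPKM in the Tgfbr2-deficient group, against 0.530 and 1.77 FPKM in the control group. Sema7a, which is held by a lipid anchor, was at 1.31 FPKM in the Tgfbr2-deficient group and 0.325 FPKM in the control group. All 3 rose, with deposited log2 folds between 1.96 and 2.37 and q = 0.00029. Over the 19 semaphorins, class 4 held 44.2% of the summed FPKM in the Tgfbr2-deficient group and 73.3% in the control group.

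**Figure D3:**
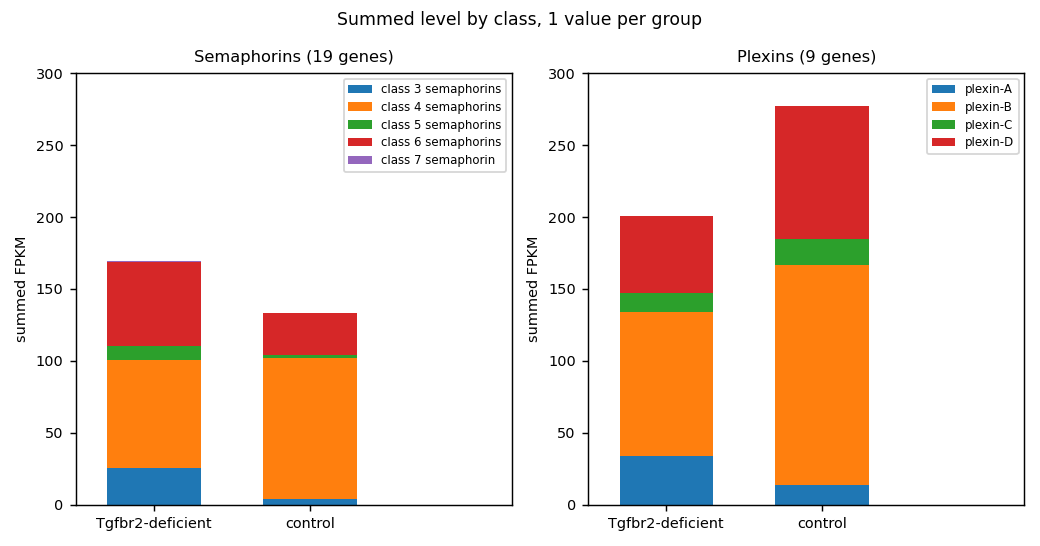
Summed FPKM of the 19 semaphorins (left) and the 9 plexins (right) by class, with the Tgfbr2-deficient bar left of the control bar and 1 value per group. Class 3 semaphorins sum to 25.3 FPKM in the Tgfbr2-deficient group and 4.17 FPKM in the control group, and plexin-D is at 54.0 and 92.8 FPKM in the same order.

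The plexins split as well. All 4 A-type plexins, receptors that work with neuropilins for class 3 and directly for class 6 semaphorins, rose. Plxna2 was at 7.55 FPKM in the Tgfbr2-deficient group and 1.77 FPKM in the control group (deposited log2 fold 2.09, q = 0.00029). Plxna4 was at 6.05 and 1.71 FPKM in the same order (deposited log2 fold 1.82), Plxna3 at 9.65 and 4.26 FPKM (1.18), and Plxna1 at 10.7 and 6.20 FPKM (0.78, q = 0.00124). Exons of Plxna1 share 10.7% of their bases with the gene model Gm26811, whose reads cannot be separated. Plxnb1, the receptor of Sema4d, was at 8.0 FPKM in the Tgfbr2-deficient group and 1.93 FPKM in the control group and rose (deposited log2 fold 2.05, q = 0.00029), unlike Plxnb2 of the same class. Plxnb3 was at 1.80 FPKM in the Tgfbr2-deficient group and 2.70 FPKM in the control group and did not pass (deposited q = 0.0820). Plxnc1, the receptor of Sema7a, was at 13.2 and 17.6 FPKM in the same order and did not pass (deposited q = 0.110). Plxnb2 and Plxnd1 together made up 71.7% of the summed plexin FPKM in the Tgfbr2-deficient group and 87.0% in the control group, and the other 7 plexins summed to 56.9 and 36.1 FPKM.

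Every ephrin was at a higher level in the Tgfbr2-deficient group, and 6 of 7 rose. Efna1, a ligand of EphA2 that inflammatory signals can induce in endothelium, changed most, at 11.2 FPKM in the Tgfbr2-deficient group and 1.39 FPKM in the control group (deposited log2 fold 3.0, q = 0.00029). The ephrin-B genes were the most abundant: Efnb1 was at 24.2 FPKM in the Tgfbr2-deficient group and 7.76 FPKM in the control group, and Efnb3 at 20.3 and 6.40 FPKM in the same order. Their deposited log2 folds were close, at 1.64 and 1.66 (q = 0.00029 each), and Efnb1 was in the Tgfbr2-deficient group the most abundant guidance gene after Plxnb2, Plxnd1 and Sema4d. Efna3 was at 6.86 FPKM in the Tgfbr2-deficient group and 1.91 FPKM in the control group, and Efna5 at 3.68 and 1.02 FPKM in the same order, both with deposited log2 folds of 1.85. Efna4 was at 4.69 FPKM in the Tgfbr2-deficient group and 2.21 FPKM in the control group, a smaller change (deposited log2 fold 1.09, q = 0.0133). In mm10, Efna1, Efna3 and Efna4 lie side by side on chromosome 3, and exons of Efna3 and Efna4 overlap Gm15998 and 4731419I09Rik by 14.1% and 10.5% of their bases. Efna2, at 13.5 FPKM in the Tgfbr2-deficient group and 5.02 FPKM in the control group, did not pass (deposited q = 0.434), and its entry shares 1 locus with a long run of neighbouring genes.

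Eph receptors rose across both classes, and each receptor that passed was under 3 FPKM in the control group. Epha2, the ephrin-A1 receptor known from epithelium and vessel sprouting, was at 2.46 FPKM in the Tgfbr2-deficient group and 0.206 FPKM in the control group (deposited log2 fold 3.58, q = 0.00029). Epha3 was at 9.37 FPKM in the Tgfbr2-deficient group and 1.58 FPKM in the control group, the highest level of the EphA class in both groups (deposited log2 fold 2.57). Epha4, Epha5 and Epha7, receptors of axon mapping in the forebrain, were at 5.14, 5.27 and 5.01 FPKM in the Tgfbr2-deficient group, against 1.36, 1.17 and 1.38 FPKM in the control group, so these 3 stood close to each other in both. Epha8 was at 2.33 FPKM in the Tgfbr2-deficient group and 0.685 FPKM in the control group. Among EphB receptors, Ephb3 was at 10.7 FPKM in the Tgfbr2-deficient group and 2.60 FPKM in the control group (deposited log2 fold 2.03), Ephb2 at 8.86 and 2.76 FPKM (1.68) and Ephb1 at 5.77 and 1.69 FPKM (1.77) in the same order. Each of the 9 receptors that rose had q = 0.00029 in the authors' deposited table. Ephb6, whose kinase is inactive, was at 6.77 FPKM in the Tgfbr2-deficient group and 4.51 FPKM in the control group and did not pass (deposited q = 0.0525), although it had the highest control level of the 13 receptors. Epha1, Epha6 and Epha10 stayed under 1 FPKM in both groups.

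All 3 Slits and all 4 Robos rose, against 23.9% of all tested genes. Slit2, Slit3 and Robo4 reached 1 FPKM in the Tgfbr2-deficient group alone, where the filter favours a rise. At a minimum of 5 FPKM, 0 Slits entered the count. Robo4, a receptor largely limited to endothelium, had the largest deposited log2 fold of all 55 tested guidance genes, 4.19 (q = 0.00029), at 9.03 FPKM in the Tgfbr2-deficient group and 0.494 FPKM in the control group, a ratio of 18.3. Robo1 and Robo2, the main Slit receptors of axons, were at 10.4 and 5.39 FPKM in the Tgfbr2-deficient group, against 2.51 and 1.0 FPKM in the control group (deposited log2 folds 2.05 and 2.43). Robo3, which acts in axons that cross the midline, was at 3.05 FPKM in the Tgfbr2-deficient group and 1.70 FPKM in the control group and changed least (deposited log2 fold 0.85, q = 0.0168). Robo3 and Robo4 lie next to each other on chromosome 9, so neighbours in the genome differed widely in fold here. Slit2 was at 4.43 FPKM in the Tgfbr2-deficient group and 0.747 FPKM in the control group, and Slit3 at 4.08 and 0.679 FPKM in the same order, with deposited log2 folds of 2.57 and 2.59. Slit1, known mainly from neurons, was at 3.55 FPKM in the Tgfbr2-deficient group and 1.46 FPKM in the control group (deposited log2 fold 1.28, q = 0.00029).

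Of 4 netrins 3 rose and 1 was not tested, and 0 of 3 Unc5 receptors passed at 1 FPKM or more. Ntn3 and Ntn4 reached 1 FPKM in the Tgfbr2-deficient group alone, where the filter favours a rise. Ntn1, the founding netrin of vertebrate axon guidance, was at 6.87 FPKM in the Tgfbr2-deficient group and 1.52 FPKM in the control group (deposited log2 fold 2.18, q = 0.00029). Ntn4, a netrin of basement membranes, was at 2.34 FPKM in the Tgfbr2-deficient group and 0.625 FPKM in the control group (deposited log2 fold 1.90, q = 0.00283). Ntn3 was at 2.51 and 0.730 FPKM in the same order (deposited log2 fold 1.78, q = 0.0299), in an entry that shares its locus with Tbc1d24. Unc5a, at 3.52 FPKM in the Tgfbr2-deficient group and 2.2 FPKM in the control group, did not pass (deposited q = 0.713) and shares its locus entry with Hk3. Unc5c was at 0.712 FPKM in the Tgfbr2-deficient group and 0.299 FPKM in the control group, and Unc5d at 0.991 and 0.143 FPKM in the same order, both under 1 FPKM. Their q-values in the authors' deposited table were 0.0050 and 0.00029, so both would count as higher without the minimum, where 24.8% of all genes with a test were higher. The untested Ntn5 was at 0.613 FPKM in the Tgfbr2-deficient group and 0.0753 FPKM in the control group.

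The 4 genes of these families that the rule leaves out were higher too. Ephb4 was at 21.7 FPKM in the Tgfbr2-deficient group and 2.65 FPKM in the control group, Efnb2 at 19.4 and 3.68 FPKM, Unc5b at 5.77 and 0.514 FPKM and Sema3g at 1.88 and 0.269 FPKM in the same order.

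Other genes of the guidance pathways are given beside the same shares over all tested genes, 23.9% higher and 14.7% lower. Of 18 co-receptors and other guidance receptors, 13 rose, 1 fell and 4 did not pass, with a median log2 fold of FPKM + 1 of 1.08. Cntn2, an adhesion protein of axons, was at 16.6 FPKM in the Tgfbr2-deficient group and 3.88 FPKM in the control group. Flrt2 and Flrt3, membrane ligands of Unc5 receptors, were at 6.63 and 8.59 FPKM in the Tgfbr2-deficient group, against 1.12 and 1.77 FPKM in the control group, and Nrcam, an adhesion partner of semaphorin receptors, at 5.87 and 1.81 FPKM in the Tgfbr2-deficient and control groups. The gene that fell was Nrp1, the co-receptor of Sema3a and VEGF-A, at 49.7 FPKM in the Tgfbr2-deficient group and 87.1 FPKM in the control group (deposited log2 fold −0.81, q = 0.00283). Nrp2, the co-receptor of Sema3f, was higher, at 27.0 FPKM in the Tgfbr2-deficient group and 16.3 FPKM in the control group (deposited log2 fold 0.73, q = 0.00244). Of 12 tested guidance ligands and modulators of other families, 8 rose and 0 fell, with a median of 0.72. They included Vegfa at 26.0 FPKM in the Tgfbr2-deficient group and 2.08 FPKM in the control group, the Slit-binding glypican Gpc1 at 31.1 and 10.1 FPKM, the neogenin ligand Rgma at 7.06 and 2.11 FPKM, and the netrin-binding protein Draxin at 5.27 and 1.67 FPKM in the same order.

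Genes that act inside the cell below these receptors rose and fell, and the share that fell in each list lay near the 14.7% over all tested genes. The shares that rose were 50%, 45% and 47.1%, in the order of the lists below, against 23.9% over all tested genes. In the same order, 3, 5 and 1 tested genes reached 1 FPKM in the Tgfbr2-deficient group alone. Of 20 semaphorin and plexin effectors, 10 rose and 3 fell (15%), with a median log2 fold of FPKM + 1 of 0.51. Crmp1 and Dpysl5, collapsin response mediators of neurons, were at 81.3 and 29.5 FPKM in the Tgfbr2-deficient group, against 31.4 and 11.3 FPKM in the control group, and Farp1, an exchange factor, at 10.1 and 3.49 FPKM in the Tgfbr2-deficient and control groups. The 3 that fell were Fes, a tyrosine kinase also known from myeloid cells, at 48.3 FPKM in the Tgfbr2-deficient group and 120 FPKM in the control group, Gipc1, which binds the tail of plexin-D1, at 95.3 and 178 FPKM, and the small GTPase Rap1b at 205 and 339 FPKM. Of 20 tested Eph and ephrin effectors, 9 rose and 3 fell (15%), with a median of 0.21. Arhgef15, an exchange factor of vessels and neurons, was at 6.72 FPKM in the Tgfbr2-deficient group and 0.373 FPKM in the control group, the adaptor Nck2 at 17.1 and 4.51 FPKM, the kinase Src at 14.0 and 4.68 FPKM and the phosphatase Ptpn13 at 2.56 and 0.624 FPKM. The exchange factors Vav2 and Vav3 fell, at 13.7 and 10.1 FPKM in the Tgfbr2-deficient group, against 20.1 and 15.6 FPKM in the control group. So did the lipid phosphatase Inppl1, at 19.9 and 33.1 FPKM in the Tgfbr2-deficient and control groups. Centring on ribosomal protein genes turned the sign of Vav2 for the fold of FPKM + 1 but not for the deposited fold. Of 17 tested Slit, Robo and netrin effectors, 8 rose and 2 fell (11.8%), with a median of 0.46. Ablim1, an actin-binding protein, was at 11.9 FPKM in the Tgfbr2-deficient group and 1.04 FPKM in the control group, Ablim3 at 3.13 and 1.04 FPKM, Myo10, a motor that carries Dcc, at 6.92 and 2.28 FPKM, and the focal adhesion kinase Ptk2 at 15.4 and 6.08 FPKM. The kinase Pak1, at 24.2 FPKM in the Tgfbr2-deficient group and 36.6 FPKM in the control group, and the lipid carrier Pitpna, at 69.2 and 101 FPKM, fell.

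Markers of several cell types moved in the same groups as the guidance genes. Of the tested markers, 18 of 20 pan-endothelial, 20 of 20 neuron, 13 of 15 neural progenitor, 16 of 16 fibroblast and meningeal, 10 of 13 pericyte and smooth muscle, 8 of 9 oligodendrocyte and neural crest lineage and 14 of 15 erythroid, platelet and mast cell genes rose, against 23.9% over all tested genes. In the endothelial and the erythroid list, 1 gene each fell, Fli1 and Pf4, against 14.7% over all tested genes. The neuron markers summed to 385 FPKM in the Tgfbr2-deficient group and 158 FPKM in the control group, the neural progenitor markers to 394 and 226 FPKM and the fibroblast and meningeal markers to 1210 and 156 FPKM in the same order. The pericyte and smooth muscle markers summed to 150 FPKM in the Tgfbr2-deficient group and 24.3 FPKM in the control group. The oligodendrocyte and neural crest lineage markers summed to 59.4 and 14.4 FPKM, and the erythroid, platelet and mast cell markers to 3485 and 2242 FPKM, in the same order. Most of the last control sum was Pf4 alone, at 747 FPKM in the Tgfbr2-deficient group and 1877 FPKM in the control group. In these 8 marker lists, 0 genes were at 0 FPKM in either group. The median deposited log2 fold was 3.63 for the pan-endothelial, 1.61 for the neuron, 1.55 for the neural progenitor and 2.94 for the fibroblast and meningeal markers. Of the 43 guidance genes that rose, 3 had a larger deposited log2 fold than the pan-endothelial median. They were Robo4, Sema3d and Sema3c, each below 1 FPKM in the control group. The erythroid, platelet and mast cell median was also passed by 3, and the fibroblast and meningeal and the pericyte and smooth muscle medians by 6 each. The oligodendrocyte and neural crest lineage median was passed by 24, and the neuron and neural progenitor medians by 37 each. These 43 genes were picked as higher, while the medians cover all tested markers, so the counts are only a description. The part of these markers in the rises was not tested.

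**Figure D4:**
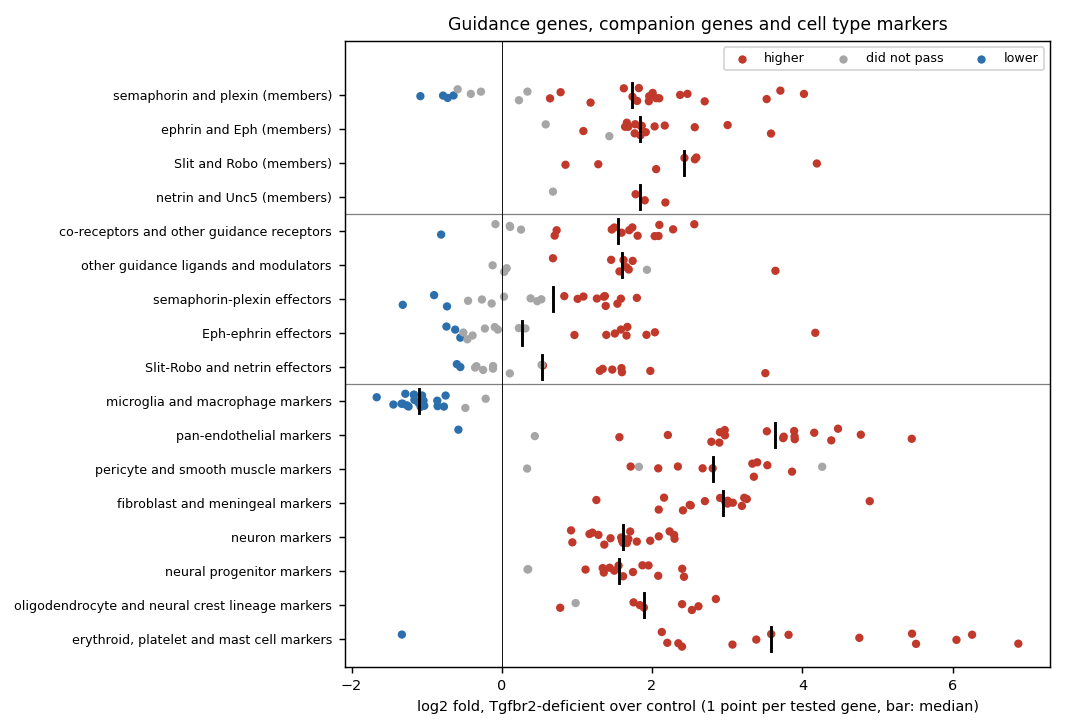
Deposited log2 fold of the Tgfbr2-deficient over the control group for each tested guidance gene (top 4 rows), companion pathway gene (middle 5 rows) and cell type marker (bottom 8 rows), with the median of each row as a black bar. Red points rose, blue points fell and grey points did not pass; the Slit and Robo row has the highest median of the guidance rows at 2.43, and the microglia and macrophage row is the only one with a median below 0, at −1.10.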

How the data were processed

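RNA of sorted cells was analysed in 4 libraries of the Tgfbr2-deficient group and 3 of the control group, grouped by the genotype in the labels. Per the labels' protocols, RNA was extracted with a micro column kit, cDNA was made with SMART-Seq v4, and libraries were built with Nextera XT. These kits do not mark strand, so reads of overlapping or antisense genes stay mixed. TopHat2, Cufflinks 2.2.1 and Cuffdiff were used with build mm10, per the submitters' processing notes. How libraries were normalized, and with which annotation, was not stated in any source used here.

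The FPKM values, per the file headers, are 1 per gene and group, as combined by the authors. The log2 fold deposited by the authors sets the Tgfbr2-deficient over the control FPKM without a pseudocount, and recomputing it gave differences of up to 1.4e-05. The authors' score, a test statistic, was not used. The p-value and q-value are those of the authors' Cuffdiff test; the lowest p-value, 5e-05, was that of 2357 genes, 39 of them guidance genes.

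A call needed a deposited q-value under 0.05, status OK and at least 1 FPKM in at least 1 group. Loci are given from 1. Exon overlaps come from GENCODE M21 on GRCm38, the same assembly. Of 225 list symbols 223 matched. Companion genes were named as the up to 4 called genes of a list with the smallest p-value, ties by fold of FPKM + 1, and those that moved against most of their list; Nrp2 was added after its values were seen. The members and lists were chosen with earlier results of these data known. The call and adjustment code was tested on simulated data. Alternatives were other FPKM minimums, thresholds, pseudocounts and centrings. Python 3.11.15, pandas 2.3.3 and matplotlib 3.10.9 were used.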

Additional observations from a re-analysis of the deposited data

How the results depend on the processing

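Values per library were not analysed here, so no library could be left out, and the depth that limits low FPKM values is unknown. No paired analysis was possible because the table holds 1 combined value per group. The main counts were 43 guidance genes higher and 4 lower, with a median log2 fold of FPKM + 1 of 1.34. At a minimum of 5 FPKM, 26 of 36 were higher. At 1 FPKM or more in both groups, an alternative chosen after seeing the data, 28 of 40 were higher. Fewer genes enter under both. Shares over all genes were not computed for these minimums, for q under 0.01 or without the genes that overlap others. At q under 0.01, 2 were lower, since Plxnb2 and Sema4b no longer passed, and Efna4, Ntn3, Robo3 and Sema6d were lost among the higher genes. Requiring a log2 fold of 1 or more as well, 1 was lower, Sema4a, and 40 were higher, against 2.76% lower and 20.1% higher over all tested genes. The median became 1.73 with 0.1 FPKM added in place of 1 FPKM. It was 1.88 when centred on ribosomal protein genes, which adds 0.54 to every fold, while centring on all tested genes adds 0.08. The ribosomal protein genes were not a stable reference. Of the 77 tested, 41 were lower (53.2%) and 0 higher, against 14.7% and 23.9% over all tested genes. Centring on ribosomal protein genes turned the sign of 3 genes that had not passed, to 0.14 for Plxnb3, 0.16 for Plxnc1 and 0.28 for Sema4d, and of 0 of the 47 that had. Leaving out the 11 tested genes sharing a locus entry or over 10% of exon bases with another gene left 34 higher and 4 lower. This choice was made after seeing the data. The 9 higher genes left out were Efna3, Efna4, Plxna1, Plxna4, Robo2, Slit2, Slit3, Ntn3 and Ntn4. Of these, Plxna4, Robo2, Slit2, Slit3, Ntn3 and Ntn4 share their locus entry with other genes. Sema4a, with 1.35% of its exon bases in Mir7011, was kept. Recomputed q-values changed 0 calls of guidance genes. Leaving out entries of several symbols could change none, since no guidance gene entry names several. Dropping the FPKM minimum added Epha1, Unc5c and Unc5d.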
